A study of Rattus norvegicus with 4 samples.

Results

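The cadherins and protocadherins are the genes whose symbol in the platform's probe annotation is Cdh followed by a number, or begins with Pcdh, with 1 symbol per probe set. The rule gave 31 genes of the 14497 measured, each with a single probe set: 11 classical cadherins, 4 other cadherins, 9 clustered protocadherins and 7 non-clustered protocadherins. RefSeq (build GRCr8) lists 73 protein-coding genes whose symbol fits the pattern, and 31 of them are members. Results on the members therefore do not cover the whole family. Neurons were grown in primary culture from the hippocampus of rat embryos, and their poly(A) RNA was read on whole-transcript Affymetrix arrays to follow the knockdown of Gld2 (gene symbol Tent2), a cytoplasmic poly(A) polymerase. Gld2 shRNA was given to 2 cultures and scrambled shRNA to 2, with 1 array each. In all cultures the RNA was bound to polyU Sepharose and released by heat before labelling, so a difference may lie in the amount of a transcript or in how well its poly(A) tail was recovered, and these cannot be told apart. The sources used here do not give the rat strain, the shRNA vector, the time of treatment or whether cultures with the same shRNA were prepared separately. The p-values therefore measure only the spread between the cultures at hand, and some of that may be technical.

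Cadherins are cell-surface proteins that bind calcium and hold cells together through repeats of an extracellular domain. Classical cadherins join the actin cytoskeleton through catenins, and in neurons they sit at synapses and sort axons and dendrites. Clustered protocadherins lie in tandem arrays named alpha, beta and gamma, and each neuron uses a small, partly random set of them, which lets its branches recognise each other. Every alpha transcript ends in the same constant exons, and so does every gamma transcript, whereas each beta gene is a single exon with a promoter of its own. Non-clustered protocadherins stand alone in the genome and act in cell sorting, axon growth and synapse formation.

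All 9 clustered protocadherins with a probe set of their own were beta genes. Of the 31 members, 25 had an entry in the RefSeq promoter table (build GRCr8), which gives the 250 bases before and the first 50 bases of each annotated gene. The exceptions were Cdh1, Cdh2, Cdh5, Cdh13, Cdh16 and Cdh17. The promoters of clustered protocadherins are known to carry a conserved element with the core CGCT, so the stretch around it is shown for the beta genes. Each sequence has 60 bases, 5′ to 3′ on the + strand, with the 10 bases GGTGGCGCTG in capitals.
Pcdhb2: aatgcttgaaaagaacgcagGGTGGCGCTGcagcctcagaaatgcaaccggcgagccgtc
Pcdhb3: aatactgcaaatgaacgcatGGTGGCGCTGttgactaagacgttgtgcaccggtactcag
Pcdhb4: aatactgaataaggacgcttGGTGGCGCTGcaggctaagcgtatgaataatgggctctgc
Pcdhb5: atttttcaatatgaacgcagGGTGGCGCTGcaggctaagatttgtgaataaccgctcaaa
Pcdhb6: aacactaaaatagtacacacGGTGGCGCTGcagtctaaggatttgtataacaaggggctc
Pcdhb8: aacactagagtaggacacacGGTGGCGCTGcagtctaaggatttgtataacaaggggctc
Pcdhb12: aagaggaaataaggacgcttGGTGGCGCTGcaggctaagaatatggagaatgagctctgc
Pcdhb20: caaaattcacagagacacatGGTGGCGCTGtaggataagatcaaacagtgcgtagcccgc
Pcdhb21: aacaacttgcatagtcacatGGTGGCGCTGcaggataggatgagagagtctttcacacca

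The windows are chr18:29279913-29279972 for Pcdhb2, chr18:29285594-29285653 for Pcdhb3, chr18:29292201-29292260 for Pcdhb4 and chr18:29302394-29302453 for Pcdhb5. They are chr18:29320142-29320201 for Pcdhb6, chr18:29339248-29339307 for Pcdhb8 and chr18:29413638-29413697 for Pcdhb12. The last of them are chr18:29485800-29485859 for Pcdhb20 and chr18:29492139-29492198 for Pcdhb21. Each lies upstream of its gene's annotated start, with the first capital 52 to 98 bases before it in 7 genes, but 208 bases before it in Pcdhb8 and 229 in Pcdhb6. The letters GGTGGCGCTG, which contain the core CGCT, are the longest run shared by the 9 promoters and were searched on both strands. They occurred in 74 of all 33469 promoters of the same length (0.221%), in all 9 beta members, in 6 of the other 10 beta genes of the table, in 0 of its 15 gamma genes and in 0 of the 16 other members that had an entry. The core CGCT alone is too short to set genes apart, since 60.9% of all promoters hold it. Over the 50 bases around the motif, identity within the 36 pairs of genes ran from 32% to 94% (median 47%). The closest pairs were Pcdhb6 with Pcdhb8 (94%), Pcdhb4 with Pcdhb12 (82%) and Pcdhb20 with Pcdhb21 (60%). A match describes the letters and shows neither a bound site nor a cause of any value below.

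The median log2 RMA value of the arrays was 8.41 and 8.48 with Gld2 shRNA and 8.41 and 8.43 with scrambled shRNA, and precision is limited by the small number of arrays. Tent2 was 2.43-fold lower with Gld2 shRNA (adjusted p = 0.000754, limma with Benjamini-Hochberg adjustment). Over all 14497 genes, 245 were higher and 349 lower at an adjusted p under 0.05 (limma with Benjamini-Hochberg adjustment over all genes, the threshold used throughout), 4.10% in all. The split moved with the scaling, to 558 higher and 1367 lower with each array centred on the median of its probe sets, and to 218 higher and 94 lower with each centred on the median of the named genes. Gld2 shRNA replicate 2 lay below replicate 1 in 21 of the 31 members and in 7414 of all 14497 genes, so values of both are given. Of the neuronal markers checked, all 12 were measured and 0 lay under the 25th percentile of level. The same held for 0 of 7 astrocyte, 0 of 7 oligodendrocyte and 0 of 6 fibroblast markers. Under it lay 1 of 6 choroid plexus, 2 of 5 dividing cell, 5 of 8 microglia and 3 of 6 endothelial markers. These levels therefore do not set neurons apart from astrocytes, oligodendrocytes or fibroblasts. No detection calls were among the sources used here, so absence of a transcript was not judged.

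Among the cadherin family genes measured, 1 changed, the non-clustered protocadherin Pcdh20, which fell to 57.6% of its control level. In 7 of the 9 measured beta protocadherins both knockdown cultures lay below both controls (34.5% of all genes did). None of the 9 passed the test. Of the 31 members, 1 passed the threshold as lower and 0 as higher, against 2.41% and 1.69% of all genes, so the number called was near the background. More members lay low without passing. In 16 of 31 both Gld2 shRNA cultures were below both scrambled shRNA cultures, against the same 34.5%, and in 5 both were above, against 24.0%. At an unadjusted p under 0.05, 11 members were lower and 1 was higher, against 16.2% and 9.24% of all genes. The median log2 difference (Gld2 shRNA minus scrambled shRNA) was -0.09 over the members and -0.02 over all genes, and 25 of 31 members were below 0, against 53.8% of all genes. By group, the median was -0.32 in the clustered and -0.25 in the non-clustered protocadherins, -0.11 in the type II and 0.01 in the type I classical cadherins, and 0.15 in the other cadherins. Some medians rested on 1 culture: that of the type II genes was -0.05 without scrambled shRNA replicate 1 (3 of the 8 then lay above 0) and -0.17 without replicate 2, that of the other cadherins 0.08 without Gld2 shRNA replicate 2, and that of the type I genes ran between 0.01 and 0.04. These are descriptions, and no difference between the groups was tested.

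**Figure D1:**
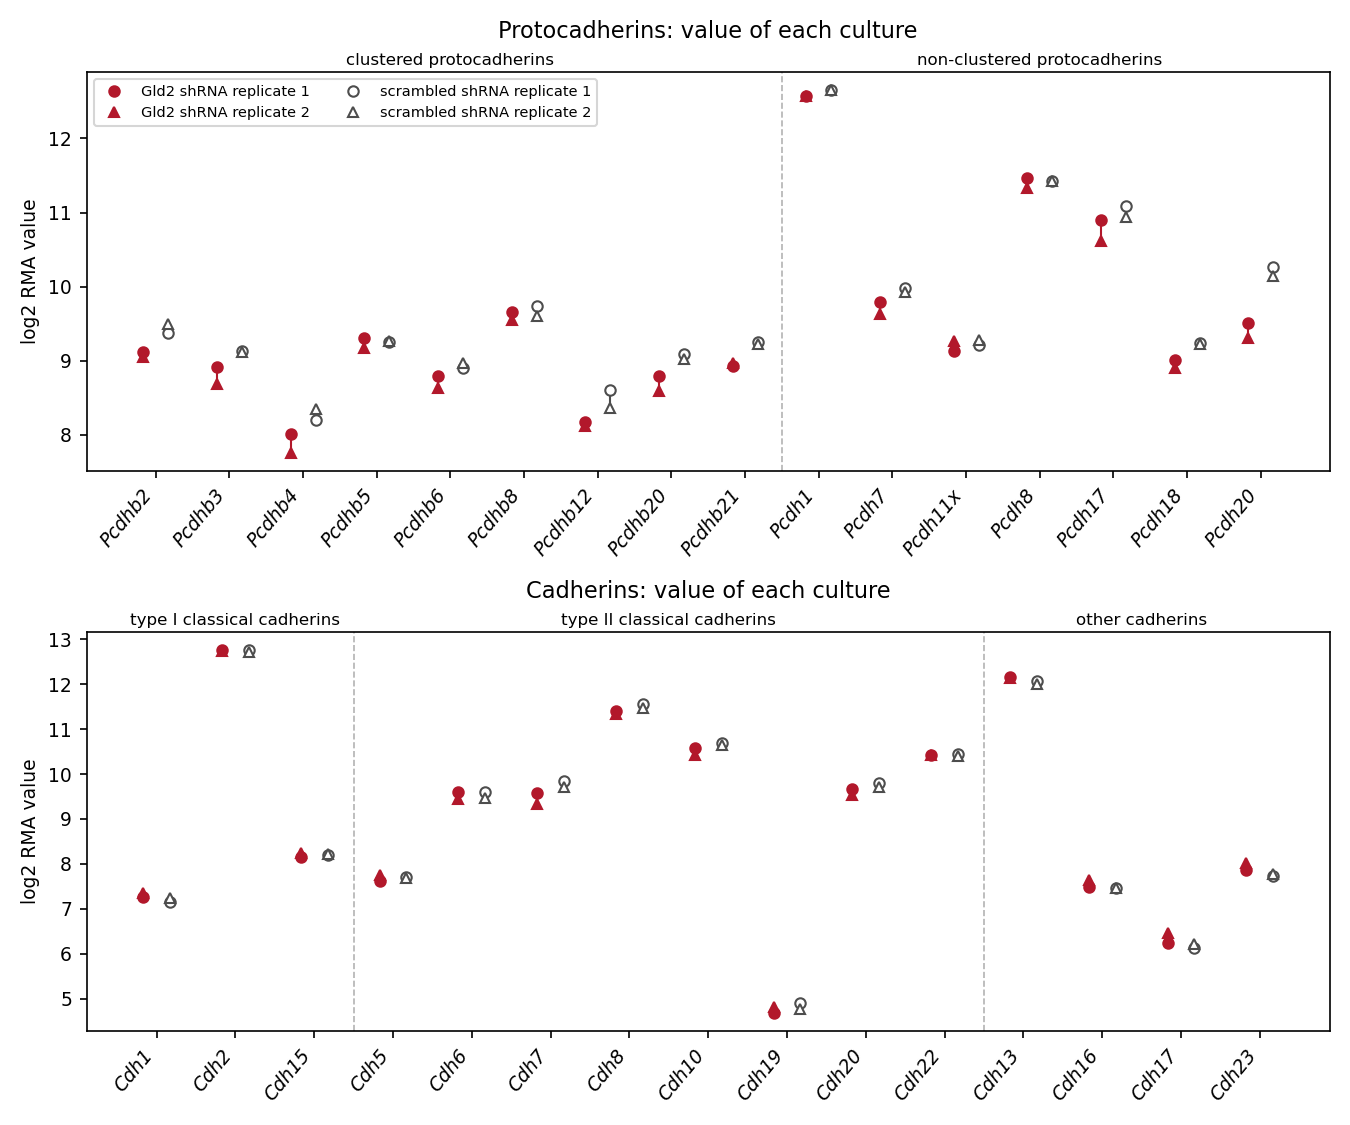
Log2 RMA value of each of the 31 members in each culture, with Gld2 shRNA cultures (filled, red) left of scrambled shRNA cultures (open, grey), circles for replicate 1 and triangles for replicate 2, and a line joining the replicates of a group. Pcdh20 shows the widest gap between the groups, and the circles and triangles of Pcdhb5 and Pcdhb8 overlap.

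Pcdh20 encodes a non-clustered protocadherin, known in mice from young olfactory sensory neurons. Its log2 RMA values (probe set 10785509) were 9.51 and 9.31 with Gld2 shRNA and 10.26 and 10.15 with scrambled shRNA. Both knockdown cultures were well below both controls, replicate 2 further than replicate 1. Its mean was 9.41 ± 0.144 with Gld2 shRNA and 10.21 ± 0.0817 with scrambled shRNA (SD, n = 2 each). The log2 difference was -0.80 (standard error 0.0897, 95% interval -1.02 to -0.58). Pcdh20 was thus 1.74-fold lower (adjusted p = 0.0113, limma with Benjamini-Hochberg adjustment). It kept its direction in every alternative run, from -0.90 to -0.69. It no longer passed in limma when scrambled shRNA replicate 1 (adjusted p = 0.147) or replicate 2 (0.0983) was left out, or without moderation across genes (0.279). Its adjusted p under the alternatives ran between 3.10e-09 and 0.279 by limma.

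All 9 measured beta protocadherins were below 0, from -0.39 to -0.02. With cyclic loess, however, 7 of 9 were below 0, and with centring on the named genes 8 of 9. In 7 of 9 the groups did not overlap, against 34.5% of all genes lower in that way. In deciles 4, 5 and 6 of mean level, which held the 9, that share was 23.1%, 43.5% and 55.2%. In decile 2 by genomic span, which also held the 9, it was 17.05%. The same 7 had an unadjusted p under 0.05, against 16.2% of all genes lower at that threshold. None of the 9 passed the threshold over all genes by limma, the smallest adjusted p being 0.0546. Beta genes are similar to each other in sequence, so their probe sets may pick up each other's transcripts, which was not tested, and the 9 are not independent measurements.

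The beta genes are taken here in their order along the cluster. RefSeq places 22 beta genes there and only 9 were measured, so no pattern by position can be read from them. The first of the measured genes were low. Pcdhb2 stood at 9.11 and 9.05 with Gld2 shRNA, against 9.37 and 9.49 with scrambled shRNA (log2 difference -0.35, 95% interval -0.52 to -0.18, adjusted p = 0.0546 by limma). Pcdhb3 stood at 8.91 and 8.69 with Gld2 shRNA, against 9.13 and 9.12 with scrambled shRNA (log2 difference -0.32). Both genes had a clear gap between the groups, and in Pcdhb3 the knockdown cultures were further from each other than the controls were. Pcdhb4 stood at 8.01 and 7.76 with Gld2 shRNA, against 8.20 and 8.34 with scrambled shRNA, the largest difference of the 9 (-0.39 ± 0.103, standard error; limma adjusted p = 0.0980).

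Pcdhb5, the next gene in the cluster, was near its controls. It stood at 9.31 and 9.17 with Gld2 shRNA, on either side of the 9.25 and 9.27 with scrambled shRNA. Its log2 difference was -0.02 with a 95% interval from -0.19 to 0.15, while that of Pcdhb2 reached from -0.52 to -0.18. Pcdhb6 stood at 8.80 and 8.64 with Gld2 shRNA and at 8.91 and 8.97 with scrambled shRNA (log2 difference -0.22, adjusted p = 0.156 by limma), a small gap without overlap. Pcdhb8 stood at 9.65 and 9.55 with Gld2 shRNA and at 9.74 and 9.61 with scrambled shRNA, where the groups overlapped (log2 difference -0.07, 95% interval -0.26 to 0.12). The 10 capitals above were chosen because every beta member shares them, so they set none of these genes apart. Pcdhb6 and Pcdhb8 are the pair with the most similar promoter windows above. Whether promoter sequence bears on these values was not tested. The differences between beta genes were not tested.

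The measured genes further along the cluster were also low, with most genes between them and Pcdhb8 not measured. Pcdhb12 stood at 8.18 and 8.12 with Gld2 shRNA, against 8.61 and 8.37 with scrambled shRNA (log2 difference -0.34), with the wider spread among the controls. Pcdhb20 stood at 8.79 and 8.59 with Gld2 shRNA, against 9.09 and 9.02 with scrambled shRNA (log2 difference -0.37, adjusted p = 0.0750 by limma). Pcdhb21 stood at 8.92 and 8.97 with Gld2 shRNA, against 9.25 and 9.22 with scrambled shRNA (log2 difference -0.29, adjusted p = 0.0595 by limma). It was the one beta gene in which replicate 1 of the knockdown lay further from the controls than replicate 2. In the other 8 replicate 2 was the lower of the pair. Against the control mean the median of the 9 genes was -0.26 in Gld2 shRNA replicate 1 and -0.37 in replicate 2. Over all genes it was -0.02 and -0.01. In deciles 4, 5 and 6 of mean level it was -0.0018, -0.05 and -0.07 in replicate 1, and 0.11, -0.06 and -0.13 in replicate 2. All 9 genes were below 0 without replicate 1, and 8 of 9 without replicate 2.

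The alpha and gamma protocadherins had no probe set naming 1 gene, so none of them is a member. A probe set annotated to 15 alpha genes stood at 9.27 and 9.18 with Gld2 shRNA and at 9.36 and 9.36 with scrambled shRNA. Its log2 difference was -0.14, with an adjusted p of 0.321 by limma over all 28826 probe sets. A probe set annotated to 13 gamma genes stood at 10.42 and 10.30 with Gld2 shRNA and at 10.42 and 10.43 with scrambled shRNA (log2 difference -0.07, adjusted p = 0.630). The probe set shared by Pcdhb9 and Pcdhb10 had a log2 difference of -0.14 (adjusted p = 0.381). None of these shared probe sets passed the test, and each may average over genes that moved differently, so no gene is given a value from them.

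**Figure D2:**
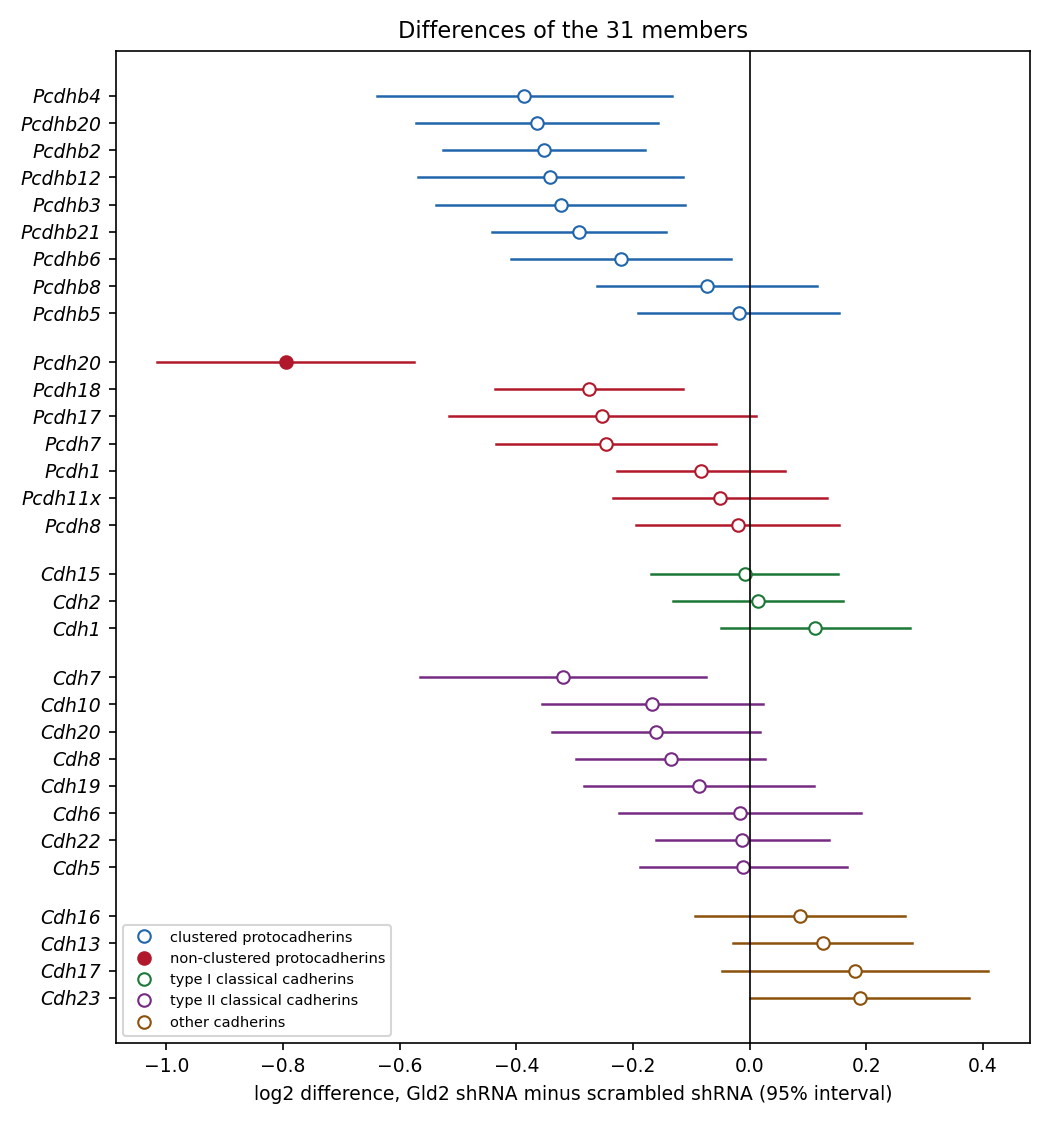
Log2 difference, Gld2 shRNA minus scrambled shRNA, of each member with its 95% interval from the moderated standard error, by group; a filled point marks an adjusted p under 0.05. Pcdh20 is the one filled point, at -0.80, and the intervals of 7 of the 9 clustered protocadherins lie below 0.

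The remaining non-clustered protocadherins all lay below 0, from -0.28 to -0.02, and none of these 6 passed the test by limma. An unadjusted p under 0.05 was found in 2 of them, Pcdh18 and Pcdh7, against 16.2% of all genes lower at that threshold. Among the 6 the lowest were Pcdh18, Pcdh17 and Pcdh7. Pcdh18, a delta protocadherin that binds the reelin adaptor Dab1 in mice, stood at 9.01 and 8.90 with Gld2 shRNA, against 9.23 and 9.23 with scrambled shRNA (log2 difference -0.28, adjusted p = 0.0788 by limma). The controls were almost equal and both knockdown cultures were lower. Pcdh17, which in mice helps to assemble synapses and recruits the WAVE complex to cell contacts, stood at 10.90 and 10.62 with Gld2 shRNA, against 11.08 and 10.94 with scrambled shRNA. The gap between the groups was narrower than the spread within either (log2 difference -0.25, 95% interval -0.52 to 0.01). Pcdh7, a delta protocadherin of brain and heart, stood at 9.79 and 9.63 with Gld2 shRNA, against 9.98 and 9.93 with scrambled shRNA (log2 difference -0.25, adjusted p = 0.128 by limma).

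Pcdh1, Pcdh11x and Pcdh8 had differences near 0. Pcdh1, a delta protocadherin also found in airway epithelium, stood at 12.58 and 12.57 with Gld2 shRNA and at 12.66 and 12.66 with scrambled shRNA, a narrow gap without overlap (log2 difference -0.08, adjusted p = 0.404 by limma). The X-linked Pcdh11x stood at 9.12 and 9.26 with Gld2 shRNA and at 9.21 and 9.28 with scrambled shRNA, where the groups overlapped (log2 difference -0.05). Pcdh8 (arcadlin), which neuronal activity induces in rat hippocampus and which drives the uptake of N-cadherin from the synapse, stood at 11.47 and 11.33 with Gld2 shRNA and at 11.43 and 11.42 with scrambled shRNA. Its log2 difference was -0.02 with a 95% interval from -0.19 to 0.15. The values of Pcdh11x and Pcdh8 changed sign under some scalings: with centring on the named genes they were 0.02 and 0.05, and with cyclic loess 0.0042 and 0.02. Without Gld2 shRNA replicate 2 the median of the 7 non-clustered genes was -0.12.

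No classical cadherin passed the test by limma. Of the 11, 1, Cdh7, had an unadjusted p under 0.05, against 16.2% of all genes lower at that threshold. Cdh2 (N-cadherin), the main classical cadherin of synapses, stood at 12.76 and 12.74 with Gld2 shRNA and 12.75 and 12.72 with scrambled shRNA (log2 difference 0.01, 95% interval -0.13 to 0.16). The other type I genes are best known outside the brain. Cdh1 (E-cadherin, of epithelia) stood at 7.27 and 7.35 with Gld2 shRNA and at 7.16 and 7.24 with scrambled shRNA, and Cdh15 (M-cadherin, of muscle) had a log2 difference of -0.0083. Cdh1 lay under the 25th percentile of mean level, and neither gene passed the test.

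Type II cadherins sort neurons into nuclei and layers and guide synapse formation. The 8 that were measured lay below 0 in every case, from -0.32 to -0.01, and 4 of the 8 did not overlap between groups. That share is to be read against 34.5% of all genes and 61.8% of the longest decile by genomic span, which held 7 of the 8. With cyclic loess Cdh6 and Cdh22 were above 0, and with centring on the named genes Cdh5 was too. Cdh7 was the lowest, at 9.58 and 9.33 with Gld2 shRNA, against 9.83 and 9.72 with scrambled shRNA (log2 difference -0.32 ± 0.0997, standard error; limma adjusted p = 0.127). The gap was narrower than the spread between the knockdown cultures. Cdh10 stood at 10.58 and 10.42 with Gld2 shRNA, against 10.69 and 10.64 with scrambled shRNA (log2 difference -0.17). Cdh20 and Cdh8 had differences of -0.16 and -0.14 (adjusted p = 0.228 and 0.256 by limma). Cdh6, which with Cdh10 takes part in synaptic strengthening in the mouse hippocampus, stood at 9.60 and 9.45 with Gld2 shRNA and at 9.61 and 9.47 with scrambled shRNA, with no gap (log2 difference -0.02). Cdh22 and the endothelial Cdh5 (VE-cadherin) were both at -0.01, and Cdh19, a gene of Schwann cell precursors with values under the 25th percentile, was at -0.09.

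The other cadherins lay on the opposite side, with all 4 above 0, from 0.09 to 0.19. None passed the test by limma, and 1, Cdh23, had an unadjusted p under 0.05, against 9.24% of all genes higher at that threshold. In all 4 the groups did not overlap, against 24.0% of all genes higher in that way. Cdh13 (T-cadherin), which is held to the membrane by a lipid anchor and lacks the catenin-binding tail, stood at 12.17 and 12.14 with Gld2 shRNA and at 12.06 and 11.99 with scrambled shRNA (log2 difference 0.13, adjusted p = 0.263 by limma). Cdh23, whose protein forms the tip links of inner ear hair cells, stood at 7.86 and 8.02 with Gld2 shRNA and at 7.73 and 7.77 with scrambled shRNA (log2 difference 0.19, adjusted p = 0.196 by limma). Cdh16 of kidney and Cdh17 of intestine were at 0.09 and 0.18, and both lay under the 25th percentile of level. Cdh16 and Cdh23 were in decile 3 of all genes by mean level, which had a median log2 difference of 0.10, and Cdh17 was in decile 1, with a median of 0.01.

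**Figure D3:**
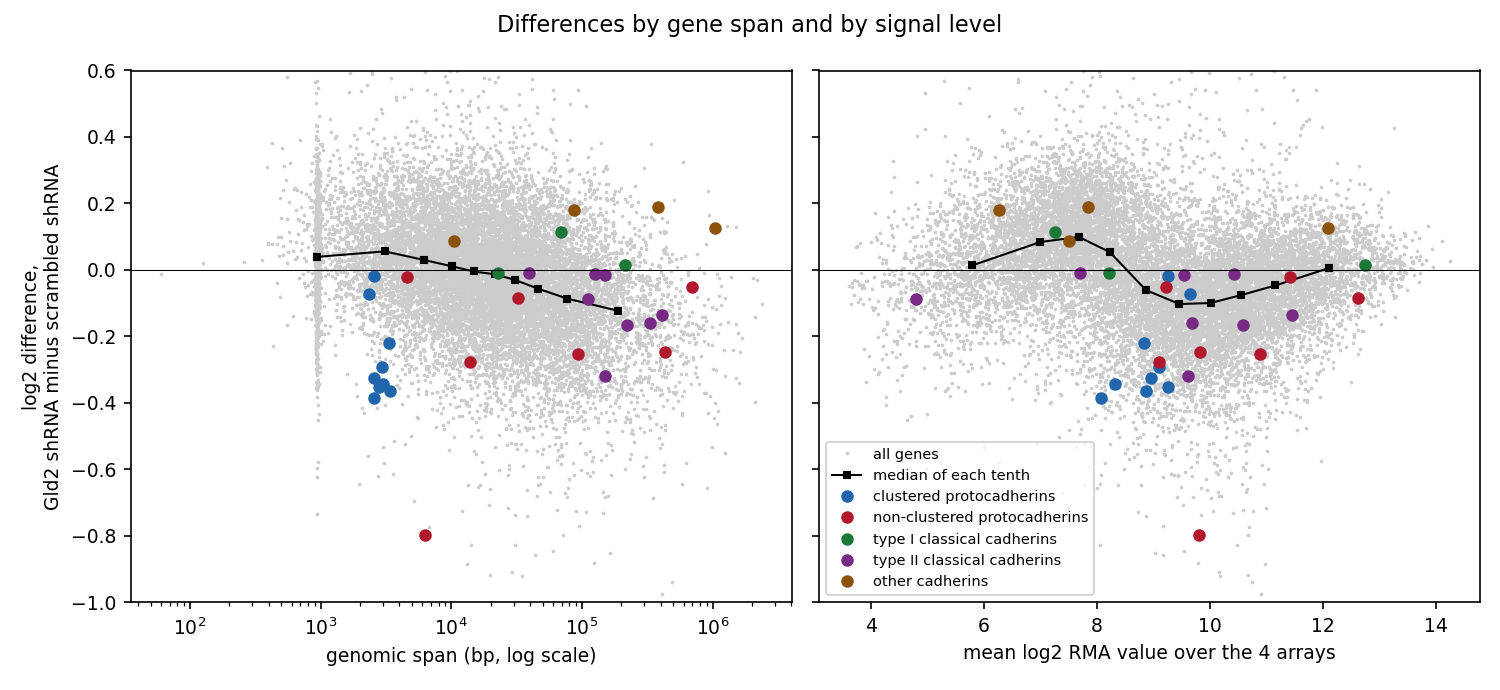
Log2 difference of every gene (grey) against genomic span in bp (left, log axis) and mean log2 RMA value over the 4 arrays (right), with the median of each decile of genes (black) and the members by group; 133 genes outside -1 to 0.6 are not drawn. The clustered protocadherins and Pcdh20 lie below the median line at their span, while at their mean level Pcdhb5 and Pcdhb8 lie above it.

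Differences on these arrays varied with the length and level of a gene, and the groups of the family differ in both. By genomic span in RefSeq (GRCr8), the median was 2787 bp for the clustered protocadherins, 150267 bp for the type II cadherins and 18036 bp for all genes. The longest decile of all genes had a median difference of -0.12, and decile 2 by span, which held all 9 beta genes, had a median of 0.06. With the length trend removed, the median of the type II cadherins was 0.02. The median of the beta genes was below that of genes of their span, and with the trend removed all 9 stayed below 0, with Pcdhb2 and Pcdhb21 past the threshold (adjusted p = 0.0431 and 0.0409 by limma). The same fit called Cdh13 in the other direction, with a log2 difference of 0.32 (adjusted p = 0.046 by limma), against 0.13 as reported. It called 3.53% of all genes. Of the 9 beta genes, 2 were in decile 4 of mean level, 4 in decile 5 and 3 in decile 6, where all genes had medians of 0.05, -0.06 and -0.10. Beyond these values, the part of length and level in the differences was not tested.

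**Figure D4:**
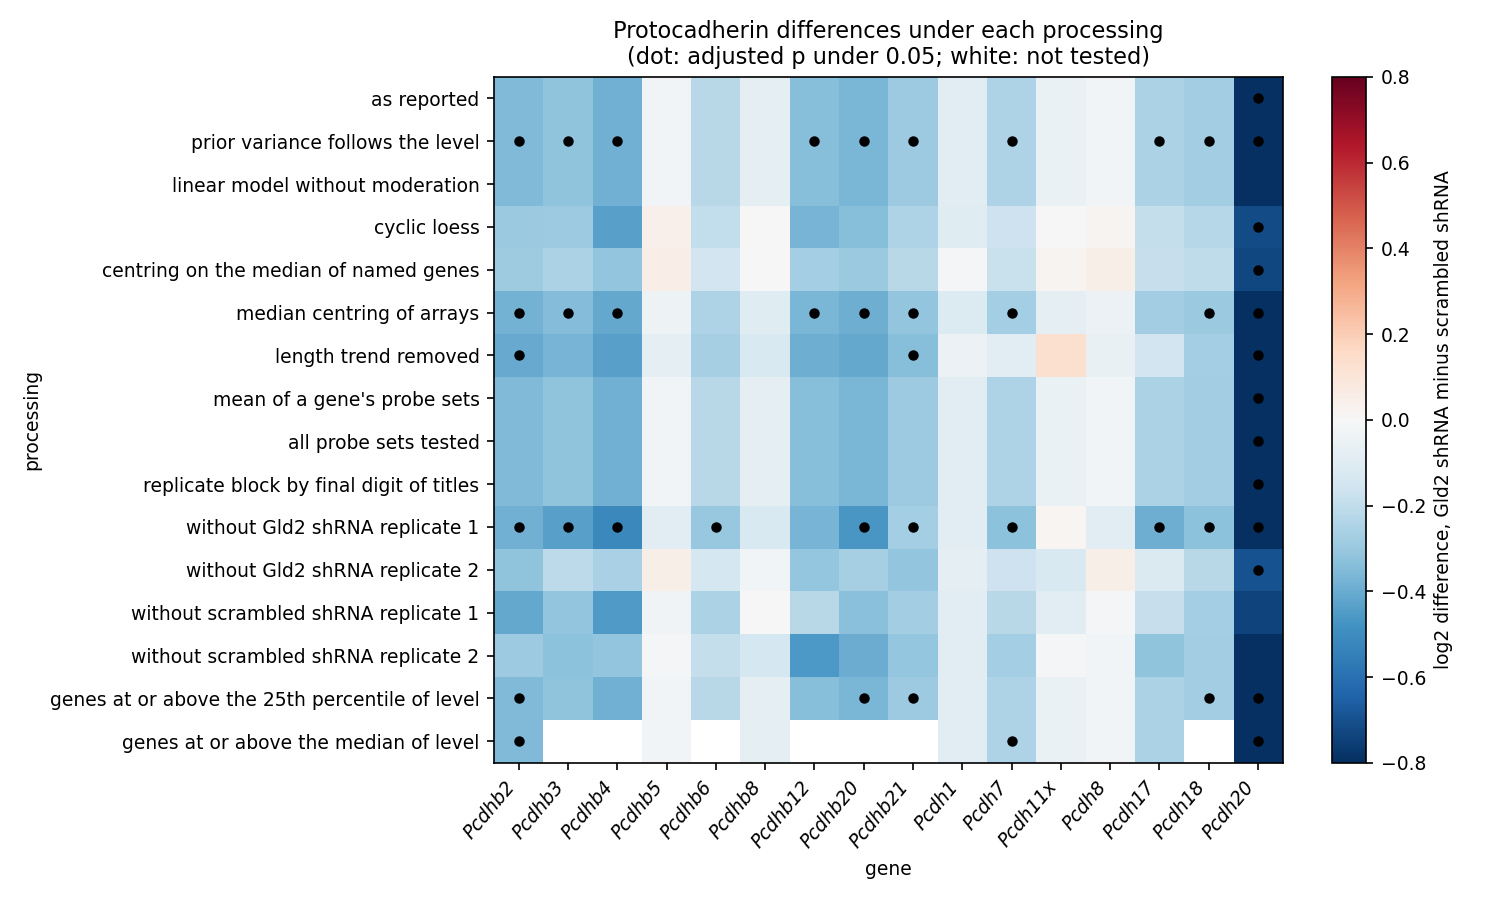
Log2 difference, Gld2 shRNA minus scrambled shRNA, of each protocadherin (columns) as reported and under each alternative processing (rows); blue is lower and red higher in Gld2 shRNA, a dot marks an adjusted p under 0.05, and white cells were left out by a filter on dim genes. Pcdh20 is blue in every row, and 7 beta genes are blue in every row in which they were tested.

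How many members passed the threshold depended on the culture left out, as it did over all genes. Without Gld2 shRNA replicate 1 there were 13 of 31, of which 11 were lower (6 of them beta genes) and 2 higher, Cdh17 and Cdh23, and the same fit called 9.70% of all genes lower and 8.85% higher. Without Gld2 shRNA replicate 2 there was 1 member, with 1.87% of all genes called. Without scrambled shRNA replicate 1 or 2 there were 0 by limma, with 0.586% and 0.635% of all genes called. Each of these fits has 1 culture in a group, which is assumed to vary like the other group. When the prior variance followed the level, 11 members passed, all lower, and 11.1% of all genes were called lower. They were Pcdhb2, Pcdhb3, Pcdhb4, Pcdhb12, Pcdhb20 and Pcdhb21 among the beta genes, and Pcdh20, Pcdh18, Pcdh17, Pcdh7 and Cdh7. The same 6 beta genes passed with each array centred on its own median, where 9.43% of all genes were called lower.

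Few genes that work with the family passed the test. Of 14 measured catenins and cadherin partners, 0 passed the test by limma and 2 were lower at an unadjusted p under 0.05, with a median of -0.07, against 2.41% and 16.2% of all genes lower at these thresholds. The lowest p belonged to Afdn (afadin, of adherens junctions, -0.26), Ctnnd2 (delta-catenin, of synapses, -0.17) and the phosphatase gene Ptpn1 (-0.11). Of 14 measured genes elsewhere in the cadherin superfamily, 1 fell and 0 rose, against 2.41% and 1.69% of all genes called. Their median was -0.12. At an unadjusted p under 0.05, 6 were lower and 1 was higher, against 16.2% and 9.24% of all genes. Fat3, a giant cadherin that shapes dendrites in the mouse retina, is in the longest decile by genomic span, with 8.42% of genes called lower. It stood at 10.02 and 9.86 with Gld2 shRNA, against 10.35 and 10.40 with scrambled shRNA. Fat3 was lower by a log2 difference of -0.44, or 1.35-fold, and passed (adjusted p = 0.0411 by limma). Fat3 did not pass by limma with the replicate number as a block (adjusted p = 0.0510), with the length trend removed (0.0891), with centring on the named genes (0.0723), with all probe sets tested (0.0914) or without moderation (0.302). Nor did it when Gld2 shRNA replicate 2 (0.0873) or scrambled shRNA replicate 1 (0.294) or 2 (0.282) was left out, by limma. Celsr3, which guides axon tracts, was at -0.30 (adjusted p = 0.0516 by limma), and the calsyntenin Clstn2 was at -0.28.

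Protocadherins act on actin through the WAVE complex, among other effectors. Of 16 measured genes of that list, 1 fell and 0 rose, with a median of -0.08, against 2.41% and 1.69% of all genes called. At an unadjusted p under 0.05, 3 were lower and 1 higher, against 16.2% and 9.24% of all genes. Cyfip2, a subunit of the WAVE complex that also binds the fragile X protein, is in the longest decile by genomic span. That decile had a median log2 difference of -0.12, with 8.42% of its genes called lower. Cyfip2 stood at 11.69 and 11.65 with Gld2 shRNA, against 12.27 and 12.22 with scrambled shRNA. The groups were far apart for their spread, and Cyfip2 was 1.49-fold lower (log2 difference -0.57 ± 0.0612, standard error; limma adjusted p = 0.00926), a call lost without either scrambled shRNA replicate (adjusted p = 0.158 and 0.124 by limma) and without moderation (0.215). Its paralog Cyfip1 was at -0.18, the Wnt receptor Ryk at -0.32 (adjusted p = 0.0784 by limma) and Wasf1 (WAVE1) at -0.07. The choice of a clustered protocadherin promoter depends on the DNA-binding protein CTCF, on cohesin and on DNA methylation. Of 13 measured genes of that kind, 0 passed the test by limma, and the median was -0.15. An unadjusted p under 0.05 was found in 4, all lower, against 16.2% of all genes lower and 9.24% higher. Ctcf was at -0.16 (adjusted p = 0.253 by limma), and the lowest p belonged to the methyltransferase gene Dnmt3a (-0.22) and the cohesin genes Pds5a (-0.31) and Smc3 (-0.26).

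Among markers of the cell types that the cultures could hold, 2 genes passed the test, both lower. Over all genes, 2.41% passed as lower and 1.69% as higher. At an unadjusted p under 0.05, 16.2% of all genes were lower and 9.24% higher, the background for the counts below. Of the 12 neuronal markers, 4 were lower and 0 higher at an unadjusted p under 0.05. Below 0 were 10 of the 12, against 53.8% of all genes. Prox1, the transcription factor of dentate granule cells, had a log2 difference of -0.59 (adjusted p = 0.0259 by limma), and the other 11 of 12 neuronal markers did not pass. Of the 7 astrocyte markers, 1 was lower and 0 higher at an unadjusted p under 0.05, and 3 were below 0. Gja1, the astrocyte connexin, had a log2 difference of -0.39 (adjusted p = 0.0352 by limma), and the other 6 of 7 astrocyte markers did not pass. Neither passed when a scrambled shRNA replicate was left out (adjusted p by limma 0.252 and 0.175 for Prox1, 0.286 and 0.280 for Gja1), and Gja1 did not without Gld2 shRNA replicate 2 (0.0851) or with centring on the named genes (0.0698). With all probe sets tested the adjusted p was 0.0672 for Prox1 and 0.0844 for Gja1, and without moderation 0.297 and 0.259, by limma. The log2 of the summed linear values of the neuronal list was 16.08 to 16.09 with Gld2 shRNA and 16.16 to 16.16 with scrambled shRNA, and that of the astrocyte list was 15.12 to 15.17 with Gld2 shRNA and 15.15 to 15.16 with scrambled shRNA. The dividing cell list, with 0 of 5 past the test by limma and 2 lower at an unadjusted p under 0.05, was at 11.66 to 11.70 with Gld2 shRNA and 11.78 to 11.82 with scrambled shRNA. The endothelial list, to which Cdh5 is close in tissue, had 0 of 6 past the test by limma and a median of 0.15, with 2 higher at an unadjusted p under 0.05. The microglia list had 0 of 8 past the test by limma and a median of 0.12, with 1 higher at an unadjusted p under 0.05. The oligodendrocyte, fibroblast and choroid plexus lists had 0 of 7, 0 of 6 and 0 of 6 past the test by limma, with medians of 0.03, 0.02 and 0.12 and with 1, 2 and 0 at an unadjusted p under 0.05. In bulk cultures fewer cells of a type and less RNA per cell cannot be told apart, and the part of cell composition in the values of the family was not tested.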

How the data were processed

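The deposited table held log2 values for 28826 probe sets. The submitters' processing notes name RMA and affy, and the sources used here give no version, setting or probe set definition. That the deposited values are log2 was inferred from their range, 3.23 to 14.3. No further normalization was applied. The platform annotation gave 1 symbol for 15209 probe sets, several for 306 and none for 13311. Each gene was represented by its probe set of highest mean level, which left 14497 genes. Every member had 1 probe set.

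Two-sided moderated tests were run with limma 3.58.1 (lmFit and eBayes, R 4.3.3), and p-values were adjusted over all genes by Benjamini-Hochberg. The groups left 2 residual degrees of freedom, and moderation added 3.96. In a simulation with 14497 genes and the same group sizes, 2% of 1.25-fold, 72% of 1.5-fold and 100% of 2-fold changes were recovered. There were 7 false calls. Changes were put into a small part of the genes, and the noise was normal with a variance that did not depend on level. Recovery in the real data may therefore differ.

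Genes were named by rule: members past the threshold, and in each group the 6 with the smallest p and the 2 with the highest mean level. For partner lists they were genes past the threshold and up to 3 with the smallest p. Any other gene was named with its values known. The members and lists were chosen with earlier results of these data known. The alternatives were other variance priors, filters, scalings, removal of a length trend (lowess span 0.3), other probe set choices, a replicate block, a threshold of 0.1 and leaving out each culture. Centring on the named genes was added after the data were seen.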

Additional observations from a re-analysis of the deposited data

How the results depend on the processing

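The count of genes past the threshold, 594 as reported, was 2232 when the prior variance followed the level, 1 without moderation, 1297 and 1596 with genes under the 25th percentile or the median of level left out, 1925 with array-median centring, 312 with centring on the named genes, 313 with all probe sets tested and 1484 at a threshold of 0.1. Leaving out each culture gave 85 to 2689. The count of members, 1 as reported, was 11, 0, 5, 4 and 10 in the first 5 of these settings, 4 with the length trend removed and 7 at a threshold of 0.1, and 0 to 13 with a culture left out. The filters at the 25th percentile and the median left 27 and 17 members among 10873 and 7249 genes tested. The length-trend fit called 512 of 14490 genes. Each member count is to be read against the count over all genes in its setting. The filtered fits were run anew on the genes kept, so both the variance prior and the adjustment changed. Why the counts differed between settings was not tested. The fit with the final digits of the titles as a replicate block gave 565 genes and 1 member, and among the genes named it ended the call of Fat3 (adjusted p = 0.0510 by limma). Same-digit deviations correlated at 0.143, and the labels do not say that the digits pair cultures. Over the members' differences under the alternatives, 370 kept direction and side of the threshold, 41 gained a call, 3 lost one and 33 changed sign.

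Group medians moved by more than the spread between replicates in a few settings. With the length trend removed they were 0.14 in type I, 0.0189 in type II and 0.30 in the other cadherins, and -0.0872 in the non-clustered protocadherins. Centring on the named genes gave 0.0844 in type I, and only 3 clustered members were above the median level, with a median of -0.0732. Leaving out each culture gave -0.33 to -0.12 in the non-clustered protocadherins.

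Changes of sign occurred only in members that did not pass the test in either fit. With cyclic loess Cdh2 was -0.0047, Cdh22 0.063, Cdh6 0.0571, Pcdh11x 0.0042, Pcdh8 0.0201, Pcdhb5 0.0385 and Pcdhb8 0.0043. With array-median centring Cdh2 was -0.0091. With centring on the named genes Cdh15 was 0.0617, Cdh22 0.0577, Cdh5 0.0595, Cdh6 0.0535, Pcdh11x 0.019, Pcdh8 0.0494 and Pcdhb5 0.0511. With the length trend removed Cdh15 was 0.0162, Cdh19 0.0165, Cdh22 0.0955, Cdh5 0.0392, Cdh6 0.0989, Cdh8 0.0214 and Pcdh11x 0.1263. Leaving out each culture gave ranges across 0 for Cdh15 (-0.0553 to 0.0388), Cdh2 (-2e-04 to 0.0291), Cdh22 (-0.0363 to 0.0117), Cdh5 (-0.0818 to 0.0609), Cdh6 (-0.094 to 0.0609), Pcdh11x (-0.1207 to 0.0186), Pcdh8 (-0.0897 to 0.0485) and Pcdhb5 (-0.0845 to 0.0466). Without detection calls, signal over background limits Cdh1, Cdh16, Cdh17 and Cdh19 most.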
